A study of Mus musculus with 4 samples.

Results

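The large (60S) ribosomal subunit protein genes were followed in spatial transcriptomes of coronal mouse brain sections through the dorsal hippocampus. Members were the symbols in the gene table that begin with Rpl and a number, together with the 3 acidic stalk genes Rplp0, Rplp1 and Rplp2. Symbols of pseudogenes (5, marked -ps) and the 6 paralogs Rpl3l, Rpl7l1, Rpl10l, Rpl22l1, Rpl36al and Rpl39l were left out, which gave 46 members among 32285 genes. All 46 passed the filter on low counts in every comparison.

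The large subunit holds the peptidyl transferase center, where peptide bonds are formed, and the tunnel through which the new protein leaves the ribosome. Its proteins are made in the cytoplasm, imported into the nucleolus and assembled there onto ribosomal RNA, so that a cell needs them in matched amounts. Their mRNAs are abundant in all cells and begin with a stretch of pyrimidines, the 5′ terminal oligopyrimidine (TOP) motif, through which mTOR signaling sets their translation, and neurons also carry them into axons and dendrites.

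The 4 mice were ArcCreERT2::eYFPflx males on a C57BL/6 background, 3 to 4 months old, and each gave 1 section of 10 µm. In this genotype a Cre recombinase that needs tamoxifen is made under the promoter of the activity-regulated gene Arc, so that neurons that express Arc while the drug is present go on to make eYFP for good. The 2 trained mice had learned in the active place avoidance task to keep out of a shock zone on a rotating arena, and the 2 untrained mice had been on the same arena with no shock. Mice of both groups received 4-hydroxytamoxifen under isoflurane before a retention test with the shock off, and the brains were taken 3 days after that test. The comparison of the groups asks which transcripts differ while a memory is held with no recall. No pair of sections is known to share anything but its number, so p-values between the groups measure the spread between single mice. P-values between regions, and of the training difference between regions, come from fits with the section as a block. They measure the spread left after section and region are fitted, pooled over regions of only 4 mice.

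RefSeq start-site windows (GRCm38.p6) were found for 34 of the 46 members, in 40 windows. A run of at least 8 bases made of C and T alone, on the gene's strand from 20 bases before to 30 after the annotated start, was present in 22 of the 40 windows (55.0%), against 19.0% of all 32851 windows in the table and 40.7% of those of small subunit genes. The letters CCGGAAG, on either strand within 250 bases before to 50 after the start, were in 14 windows of the members (35.0%) and in 8.86% of all windows. The windows of members on which the results below turn are shown from 10 bases before to 20 after the start, 5′ to 3′ on the gene's strand, with the longest C and T run in capitals, first 6 whose runs are long and then 2 whose runs are short at the annotated start. Rpl35a has 3 annotated starts, and the window shown is the 1 with a long run; the longest runs near the others are 6 and 5 bases.
Rpl28, chr7:4792955-4792984, plus strand: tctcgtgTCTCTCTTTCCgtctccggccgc
Rpl35, chr2:39005112-39005141, minus strand: ccgCCCTTTCCTCTTTCTCTCgaaccaggc
Rpl18, chr7:45718061-45718090, plus strand: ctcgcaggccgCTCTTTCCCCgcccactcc
Rpl13a, chr7:45128726-45128755, minus strand: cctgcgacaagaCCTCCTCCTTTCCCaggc
Rplp2, chr7:141447641-141447670, plus strand: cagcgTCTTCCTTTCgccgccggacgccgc
Rpl35a, chr16:33056472-33056501, plus strand: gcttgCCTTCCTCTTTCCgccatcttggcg
Rpl10, chrX:74270806-74270835, plus strand: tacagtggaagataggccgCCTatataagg
Rpl41, chr10:128549149-128549178, minus strand: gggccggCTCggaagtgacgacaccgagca
Rpl41 and Rpl10, which have short runs here, were among the members that differed most between regions, as was Rpl28, which has a run of 11.

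Each captured mRNA carries a random tag, so that its copies count once, and these tags (UMIs) came to 7119995 and 10330015 in trained 1 and trained 2 and 3560294 and 6581748 in untrained 1 and untrained 2, over 2865, 3055, 2359 and 2661 spots. At least 1 UMI of a member was found in over 99.6% of the spots of each section, and a spot held a median of 60, 79, 29 and 55 such UMIs in trained 1, trained 2, untrained 1 and untrained 2. A spot can hold several cells or parts of cells, and the sections share spot barcodes because every array carries the same set (3147 of 4153 barcodes occurred in more than 1 section). Spots were given to 14 regions by marker lists that hold no ribosomal gene, and each region had at least 10 spots in each section. The smallest was CA3 of untrained 1, with 12 spots and 20989 UMIs, where Rpl22 had 0 UMIs, which allows up to 143 CPM (counts per 1000000 UMIs, the unit used for single genes below; the limit is 3 counts and covers counting error only). The choroid plexus spots of trained 2 held fewer choroid plexus transcripts than those of the other sections: a list of 7 such genes made up 20.5%, 2.62%, 8.65% and 17.6% of the UMIs in trained 1, trained 2, untrained 1 and untrained 2. In trained 1 the hypothalamus list was highest in the ependymal lining and the meninges list in the choroid plexus; the other lists led in their own region in all sections.

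Summed over the members, large subunit transcripts took up 3.15%, 3.21%, 2.61% and 3.02% of all UMIs in trained 1, trained 2, untrained 1 and untrained 2. Among the regions it was highest in the ependymal lining (3.78% ± 0.387, SD, n = 4), the hypothalamus (3.74% ± 0.439) and white matter (3.58% ± 0.185) and lowest in the thalamus (2.60% ± 0.244), upper-layer cortex (2.62% ± 0.190) and CA3 (2.65% ± 0.311). In the hypothalamus the 4 sections gave 3.87%, 4.0%, 3.09% and 4.02% and in the thalamus 2.80%, 2.78%, 2.28% and 2.56%, so that each hypothalamus lay above every thalamus. Neighbors in this order lay within their spread, as did the thalamus, upper-layer cortex, CA3 and layer 5 at the low end and the ependymal lining, hypothalamus and white matter at the high end. Because spots mix cells, fewer cells of a type and less RNA per cell cannot be told apart in these shares.

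**Figure D1:**
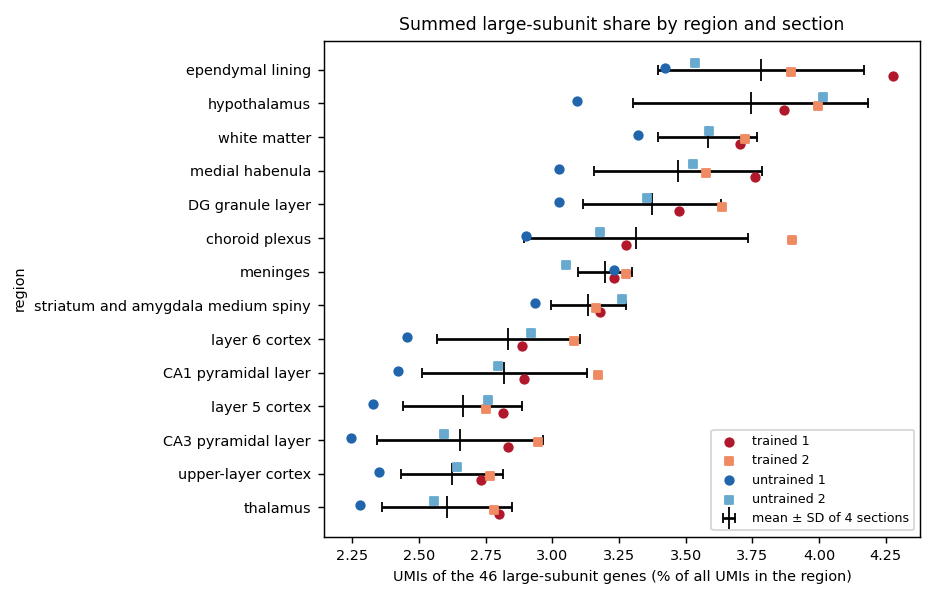
Share of all UMIs (%, horizontal axis) that the 46 large subunit genes made up in each of 14 regions (vertical axis); points are the 4 sections and bars the mean ± SD over them. The thalamus and upper-layer cortex lie lowest and the ependymal lining and hypothalamus highest, and untrained 1 is the lowest of the 4 points in 13 of the 14 regions.

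The same layout could be seen spot by spot. The share of a spot pooled with its touching spots ran from 2.55% to 4.09% in trained 1 between the 5th and 95th percentile of spots, from 2.45% to 4.27% in trained 2, from 1.98% to 3.65% in untrained 1 and from 2.38% to 4.09% in untrained 2.

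**Figure D2:**
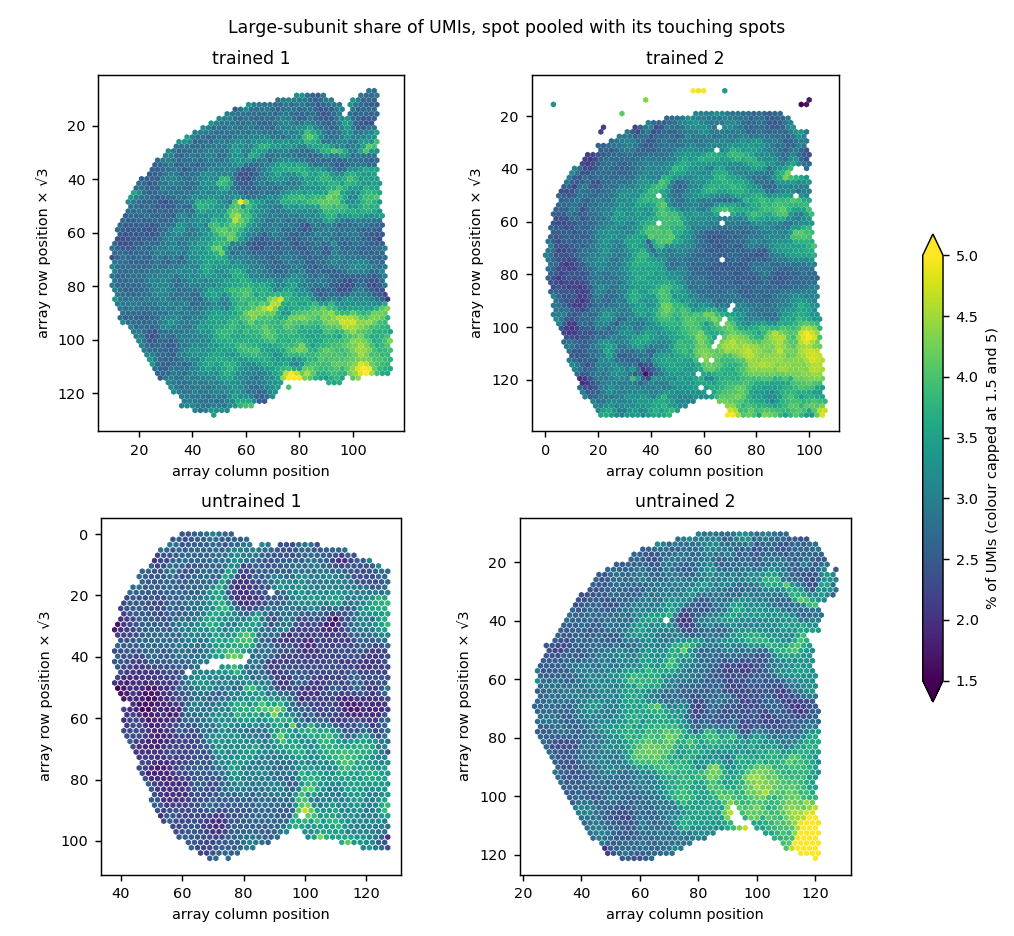
Maps of the 4 sections, with array column position across and array row position (scaled to true proportions) down, and 1 symbol per spot, colored by the share of UMIs (%) from the 46 genes in the spot and its touching spots (color capped at 1.5% and 5%). In each section the spots at the lower right, around the hypothalamus, are brighter than the block of thalamus spots above them, and untrained 1 is darker than the other sections.

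Depth and cell makeup moved with these shares. Over the 14 regions, which share 4 libraries, the mean share had a Pearson correlation of 0.99 with the summed share of the small subunit genes, of -0.84 with that of a list of 8 pan-neuronal genes and of -0.61 with the median UMIs per spot, and of -0.03 with the share of mitochondrial transcripts. The neuronal list made up 0.467% of UMIs in the hypothalamus and 0.359% in white matter, against 0.653% in the thalamus and 0.759% in upper-layer cortex. The part of cell makeup and depth in the regional order was not tested.

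Each member was then compared between regions with edgeR, every region against the mean of the other 13, with the section as a block. Here and below, the ± after a log2 value is a standard error and not a spread between sections. It is the size of the log2 divided by the square root of the test's F statistic. Of 644 pairs of member and region, 111 were called higher and 165 lower (adjusted p under 0.05 over 8053 genes). By CPM, without the scaling of the fit, 242 of these 276 had the same direction in all 4 sections taken singly. Of all genes, 2.15% (meninges) to 17.5% (thalamus) were called higher in a region and 0.174% to 15.4% lower in the same 2 regions. The 276 became 152 without trained 1 and 30 with all sums thinned to the smallest, which leaves fewer UMIs. Within a region nearly all calls ran one way. In the medium spiny neuron spots of the striatum and amygdala alone, members were called in both directions.

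In white matter, the myelinated tracts where oligodendrocytes prevail, 35 members were higher and none lower, against 14.5% of all genes called higher and 10.1% called lower; all 46 fitted differences were above 0, with a median log2 of 0.34 (0.01 for all genes). Rpl28, a 60S protein of eukaryotes, had 730.2, 787, 853 and 830.2 CPM in the white matter of trained 1, trained 2, untrained 1 and untrained 2, and 600.0, 544, 557 and 558 CPM on average in their other regions. Every white matter value lay above every average of the other regions (log2 0.63 ± 0.08, edgeR adjusted p = 1.72e-10). Rpl21 (log2 0.52 ± 0.08, edgeR adjusted p = 1.57e-07) and Rpl30 (log2 0.49 ± 0.08, edgeR adjusted p = 3.95e-07) followed. The stalk, which brings elongation factors to the ribosome, was higher as well, at log2 0.56 ± 0.09 for Rplp0, 0.46 ± 0.08 for Rplp1 and 0.38 ± 0.08 for Rplp2 (edgeR adjusted p from 5.59e-07 to 9.83e-05). Oligodendrocyte transcripts (8 genes) were 2.57%, 3.07%, 3.02% and 3.57% of UMIs there, 6 of 7 microglial genes were higher (median log2 1.2) and 6 of 8 neuronal genes lower (-0.39); their part was not tested.

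In the hypothalamus 30 members were higher and none lower (14.1% and 12.3% of all genes). Rpl3, whose protein reaches into the peptidyl transferase center, was at 716, 722, 616 and 857 CPM in trained 1, trained 2, untrained 1 and untrained 2, where the other regions of the same sections averaged 513, 501, 472 and 556 CPM (log2 0.49 ± 0.06, edgeR adjusted p = 4.21e-11). Within each section the hypothalamus was the higher of the pair. Rpl17, which lines the exit tunnel, was at 1139.8, 882, 992 and 1209.8 CPM against 879, 637, 743 and 794 CPM (log2 0.46 ± 0.07, edgeR adjusted p = 3.25e-08), and Rpl10, which joins the subunit late in its assembly, at 524, 364, 385 and 488 CPM against 375, 257, 316 and 353 CPM (log2 0.44 ± 0.07, edgeR adjusted p = 2.61e-07). Not all members took part: Rplp0 had log2 -0.12 ± 0.08 (edgeR adjusted p = 0.235), Rpl22 -0.09 ± 0.08 and Rpl7 -0.02 ± 0.07 (adjusted p = 0.462 and 0.864), while Rpl22 and Rpl7 were called higher in white matter. In the hypothalamus spots all 8 oligodendrocyte genes (median log2 -0.45) and 4 of 4 blood genes (-0.75) were lower, and 4 of 8 neuronal genes were higher and 4 lower; their part was not tested.

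The ventricular regions and the meninges had fewer calls. In the choroid plexus, the epithelium that makes cerebrospinal fluid, 24 members were higher (9.02% of all genes) and none lower (5.67%). Rpl41, the smallest ribosomal protein, had 2329.7, 2449.9, 1875 and 2479 CPM there in trained 1, trained 2, untrained 1 and untrained 2, against 1463, 1776, 1189.9 and 1505 CPM in the other regions (log2 0.83 ± 0.09, edgeR adjusted p = 8.72e-13). This was the largest difference of any member in any region by the fit, and choroid and other values did not overlap. Rpl13a (log2 0.51 ± 0.10, edgeR adjusted p = 2.43e-05) and Rpl18 (log2 0.62 ± 0.12, adjusted p = 3.98e-05) came next. The choroid count was 6 without trained 1, 10 without untrained 2 and 16 without trained 2, whose choroid spots held few choroid transcripts. By CPM, without the scaling of the fit, 8 of the 24 members had the same direction in all 4 sections. Choroid transcripts are part of the UMI totals behind CPM and the summed share. That share was 3.31% on average in these spots, while the median fitted log2 of the members was 0.30. Markers of other cells stood apart in these spots too: 8 of 8 oligodendrocyte genes (median log2 1.18) and 3 of 4 blood genes tested (1.09) were higher and 6 of 8 neuronal genes lower (-0.75), and their part was not tested. In the ependymal lining 10 members were higher (3.17% of all genes) and none lower (2.11%), led by Rpl3 (log2 0.49 ± 0.11, edgeR adjusted p = 0.00131), Rpl32 (0.43 ± 0.11, 0.00421) and Rpl24 (0.47 ± 0.12, 0.00613); the count was 1 without trained 1, 6 without trained 2 and 6 without untrained 1. In these spots 3 of 7 choroid plexus genes (median log2 0.76), 4 of 8 oligodendrocyte (0.57) and 3 of 8 astrocytic genes (0.58) were higher and 4 of 8 neuronal genes lower (-0.45). In the meninges Rpl18 alone was called (log2 0.44 ± 0.12, edgeR adjusted p = 0.0129), a share of the members near that of all genes (2.15% higher and 0.174% lower). The count was 0 without untrained 2 and 2 without trained 2. There 4 of 4 blood genes (median log2 1.83) and 7 of 8 astrocytic genes (0.84) were higher. The part of these markers was not tested.

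The medial habenula and the medium spiny neuron spots had few calls, at shares of the 46 members near or below those of all genes. In the medial habenula, a nucleus that projects to the midbrain, Rpl8 and Rpl7 were higher (4.72% of all genes, and 3.87% lower with no member among them). Rpl8 had 902, 854, 452 and 743 CPM in trained 1, trained 2, untrained 1 and untrained 2 against 589, 595, 488 and 499 CPM elsewhere, so that untrained 1 went the other way (log2 0.39 ± 0.10, edgeR adjusted p = 0.00609), and Rpl7 had log2 0.34 ± 0.11 (adjusted p = 0.0298). Of markers of other cells, 2 of 7 choroid plexus genes were called higher in these spots (median log2 1.31), and the choroid plexus list was 1.64%, 0.0530%, 0.176% and 0.236% of UMIs in trained 1, trained 2, untrained 1 and untrained 2, highest in trained 1. Their part was not tested. Neither member was called without trained 1, and 1 was without trained 2 or untrained 2. In the medium spiny neuron spots 3 members were higher (11% of all genes): Rpl31, which sits at the tunnel exit, with 687, 713, 659.6 and 599 CPM against 535, 597, 525 and 505 CPM (log2 0.36 ± 0.07, edgeR adjusted p = 2.86e-05), the stalk gene Rplp1 (log2 0.30 ± 0.08, edgeR adjusted p = 0.0033) and Rpl29 (0.26 ± 0.08, 0.0105). Rpl18 was lower there (log2 -0.23 ± 0.08, adjusted p = 0.0417; 7.25% of all genes), a call that was lost without trained 1 or trained 2 and whose sign turned, to 0.25, with depth thinned. Of markers of other cells in these spots, 3 of 7 microglial genes tested (median log2 0.32) and 2 of 8 oligodendrocyte genes (0.23) were higher, all of both lists being above 0, 2 of 8 astrocytic genes were lower (-0.19), and of neuronal genes 2 were higher and 2 lower; their part was not tested.

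The thalamus, the relay between sensory pathways and cortex, had the lowest mean share and was lowest of the 14 regions in untrained 2, with CA3, layer 5 and the upper cortex lowest in the other sections. There 39 members were lower and none higher (15.4% and 17.5% of all genes), with a median log2 of -0.31 (-0.01 for all genes). Rpl10 was at 259, 169, 249 and 253 CPM in trained 1, trained 2, untrained 1 and untrained 2 and at 395, 272, 326 and 371 CPM on average elsewhere (log2 -0.59 ± 0.08, edgeR adjusted p = 1.78e-09). In each section the thalamus was the lower. Rpl41 (log2 -0.52 ± 0.08, edgeR adjusted p = 1.36e-07), Rpl36a (-0.45 ± 0.08, 3.18e-07) and Rplp1 (-0.47 ± 0.08, 1.55e-06) were lower too. The 7 members not called were Rplp0, Rpl6, Rpl38, Rpl28, Rpl34, Rpl27 and Rpl21, with log2 values from -0.18 to 0.08. Of markers of other cells in these spots, 6 of 8 neuronal genes were higher and 2 lower (median log2 0.37), 3 of 8 astrocytic genes were higher and 3 lower (0.06), and 3 of 7 microglial genes tested (-0.35), 3 of 7 choroid plexus genes (-1.28) and 1 of 4 blood genes tested were lower; their part was not tested.

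The cortical layers were low as well. In the upper layers 43 members were lower (9.06% of all genes) and none higher (14.1%); the exceptions were Rpl4, Rpl12 and Rpl29. Rpl21 had 885, 1028, 659 and 840.2 CPM there in trained 1, trained 2, untrained 1 and untrained 2 against 1200.0, 1479, 915 and 1037 CPM (log2 -0.45 ± 0.08, edgeR adjusted p = 5.50e-06), and each section's upper cortex was the lower of the pair. Rpl35 (log2 -0.43 ± 0.08, edgeR adjusted p = 4.36e-06) and Rpl7 (-0.42 ± 0.08, 2.46e-05) were the other members with the 3 smallest p-values. Layer 5, with its large projection neurons, had 37 members lower (7.36% of all genes) and none higher (12.3%). Rplp0, the base of the stalk, had 214, 221, 242 and 232 CPM in layer 5 and 328, 305, 295 and 316 CPM elsewhere, with no overlap (log2 -0.50 ± 0.09, edgeR adjusted p = 3.06e-06), followed by Rpl13 (log2 -0.42 ± 0.08, adjusted p = 5.78e-06) and Rpl30 (-0.41 ± 0.08, 1.07e-05). In layer 6, 17 members were lower (5.17% of all genes) and none higher (10.5%), led by Rpl18 (log2 -0.43 ± 0.08, edgeR adjusted p = 4.21e-05), Rplp2 (-0.36 ± 0.08, 1.35e-04) and Rpl30 (-0.33 ± 0.08, 5.29e-04). The counts were 27 without trained 1 in the upper layers, 17 without trained 1 in layer 5 (22 without trained 2) and 3 without trained 1 in layer 6 (9 without trained 2 and 9 without untrained 2). Markers of other cells moved with them: all 8 oligodendrocyte genes were lower in the upper layers (median log2 -1.29) and in layer 5 (-0.68), and of 8 astrocytic genes 4 were lower and 1 higher in the upper layers (-0.27), 5 lower in layer 5 (-0.27) and 7 lower in layer 6 (-0.54). In each of the 3 layers 3 of 7 microglial genes tested were lower (medians -0.38, -0.40 and -0.36), and 4, 6 and 4 of 8 neuronal genes were higher in the upper layers, layer 5 and layer 6. Their part was not tested.

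Within the hippocampus large subunit transcripts took up a larger share of UMIs in the dentate gyrus (DG) granule layer than in the pyramidal layers. The summed share was 3.48%, 3.63%, 3.03% and 3.35% of UMIs in the DG of trained 1, trained 2, untrained 1 and untrained 2, 2.89%, 3.17%, 2.42% and 2.80% in CA1 and 2.83%, 2.95%, 2.24% and 2.59% in CA3. In each section the DG was highest and CA3 lowest of the 3 layers. Against all other regions, 6 members were higher in the DG (10.5% of all genes higher and 7.23% lower): Rpl4, Rpl29, Rpl30, Rpl13, Rplp1 and Rpl7. In CA1 6 were lower (4.36% of all genes lower and 9.02% higher), namely Rpl31, Rpl41, Rpl26, Rpl39, Rpl6 and Rpl17, and in CA3 22 members were lower (3.73% of all genes lower and 7.61% higher). Of markers of other cells, all 8 oligodendrocyte genes were lower in the DG (median log2 -1.29), 7 in CA1 (-0.62) and 5 in CA3 (-0.57). Of 8 neuronal genes 3 were higher and 3 lower in the DG, 3 higher in CA1 and 4 higher in CA3, and of 8 astrocytic genes 3 were higher and 1 lower in the DG (0.18), 2 lower in CA1 (-0.23) and 3 lower in CA3 (-0.32); their part was not tested.

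Rpl4, whose loop lines the exit tunnel, had 999.9, 744, 671 and 769 CPM in the DG of trained 1, trained 2, untrained 1 and untrained 2 and 642, 587, 546 and 601 CPM elsewhere (log2 0.41 ± 0.08, edgeR adjusted p = 2.27e-05). All 4 DG values exceeded all 4 averages of the other regions. Rpl29 (log2 0.34 ± 0.09, edgeR adjusted p = 0.00311) and Rpl30 (0.28 ± 0.08, 0.00826) were next. The DG count was 2 without trained 2, and the log2 of Rpl29 was then 0.22. In CA1 Rpl31 had 433, 527, 407 and 376 CPM against 555, 612, 544 and 522 CPM elsewhere (log2 -0.33 ± 0.09, edgeR adjusted p = 0.00308), with each section lower. Rpl41 (log2 -0.30 ± 0.09, edgeR adjusted p = 0.0102) and Rpl26 (-0.28 ± 0.09, 0.0164) were the next in CA1, where the count was 0 without trained 1, 0 without untrained 2 and 12 without trained 2.

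In CA3 Rpl35, which lies near the tunnel exit, had 337, 266, 334 and 276 CPM in trained 1, trained 2, untrained 1 and untrained 2 and 429, 402, 301 and 437 CPM elsewhere (log2 -0.54 ± 0.12, edgeR adjusted p = 2.09e-04). Untrained 1, with its 12 spots, went the other way. The same held for Rpl9 (log2 -0.46 ± 0.10, edgeR adjusted p = 6.00e-04), at 758, 806, 858 and 502 CPM, whereas Rpl24 (log2 -0.46 ± 0.11, adjusted p = 0.00149) was lower in all 4. The CA3 count was 15 without untrained 1, 7 without trained 1 and 5 without untrained 2.

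The layers were also compared with each other, a comparison chosen after the regional values had been seen. The DG exceeded CA3 in 20 members and was below it in none (4.56% and 4.98% of all genes); all 46 fitted differences were above 0, with a median log2 of 0.35 against 0.03 for all genes. Rpl4 had 584, 503, 667 and 527 CPM in CA3, set against the DG values above (log2 0.62 ± 0.12, edgeR adjusted p = 9.45e-05), and Rpl30 had 723, 821, 596 and 665 CPM in the DG and 547, 595, 191 and 429 CPM in CA3 (log2 0.56 ± 0.12, edgeR adjusted p = 7.68e-04). For Rpl30 each DG value was above each CA3 value, and for Rpl4 the DG was the higher within each section by a margin that was small in untrained 1. The DG exceeded CA1 in 6 members and was below it in none (3.01% and 4.36% of all genes), with Rpl29 first (log2 0.51 ± 0.13, edgeR adjusted p = 0.00285). Between CA1 and CA3 edgeR called no member (1.85% of all genes higher in CA1 and 1.95% lower), although 38 of 46 were above 0. With 1 section left out, DG against CA3 gave 11 without trained 1, 11 without trained 2, 16 without untrained 1 and 12 without untrained 2, and DG against CA1 gave 1, 3, 3 and 2.

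Across the 14 regions most members followed one course. The correlation of a member's regional log2 values with the median of the other 45 was 0.89 at the median and above 0.8 for 42 members, over regions that share libraries and a scaling. The member most like the rest was Rpl36a (0.98), and Rpl35a and Rpl36 were next (0.97 and 0.97). The least alike were Rpl29 (0.51), Rpl12 (0.78), Rpl4 (0.79) and Rpl15 (0.79). The highest fitted value fell in white matter for 16 members, in the choroid plexus for 14 and in the hypothalamus for 8, and the lowest in the thalamus for 14, in CA3 for 14 and in the upper cortex for 9. Each member was called in at least 1 region and none in more than 9, with a median of 6.

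**Figure D3:**
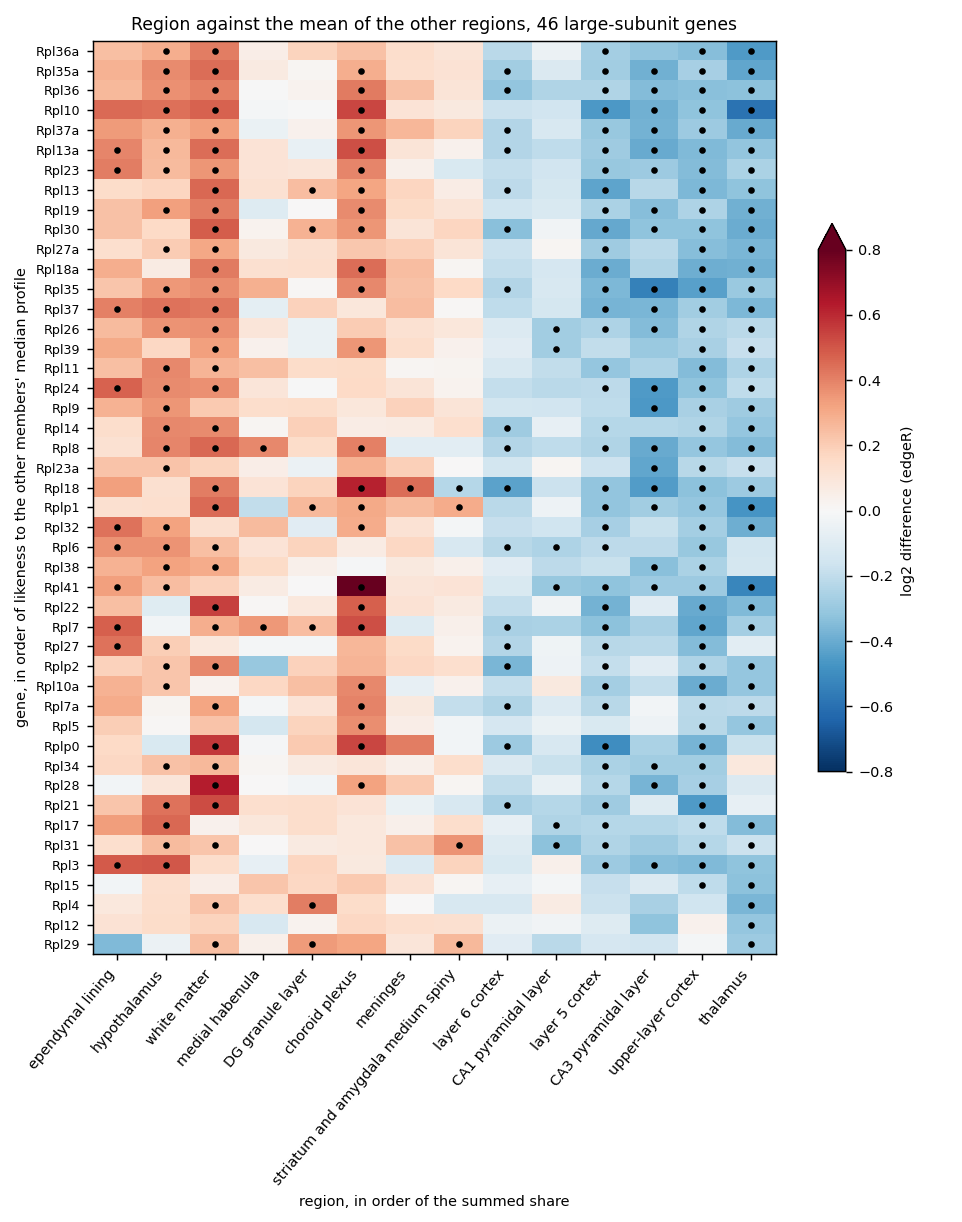
Log2 difference of each of 46 members (rows, ordered by likeness to the other members) between a region and the mean of the other regions (columns, ordered by summed share), from edgeR; red is higher, blue lower, and a dot marks adjusted p under 0.05. Red columns on the left (ependymal lining, hypothalamus, white matter) give way to blue ones on the right (cortex, CA3, thalamus), and the rows of Rpl29, Rpl12, Rpl4 and Rpl15 at the bottom differ most from that course.

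The members that departed did so in different regions. Rpl29 was highest in the DG (log2 0.34 ± 0.09) and lowest in the ependymal lining (-0.35 ± 0.15, edgeR adjusted p = 0.207), where most other members were above 0. Rpl31 peaked in the medium spiny neuron spots and was lowest in CA1. Rpl41 had the widest range, 1.35 on the log2 scale between the choroid plexus and the thalamus, followed by Rpl10 (1.13), Rplp0 (1.06) and Rpl18 (1.06). Rpl12, an anchor near the base of the stalk, had the narrowest, 0.50, and was called in the thalamus alone. Of the 3 stalk genes, in the hypothalamus Rplp2 was higher (log2 0.22 ± 0.07, edgeR adjusted p = 0.0065) while Rplp1 (0.14 ± 0.08) and Rplp0 (-0.12 ± 0.08) were not called, and in the DG Rplp1 alone was (0.26 ± 0.08, 0.0182). Whether these 3 differ from each other was not tested.

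With all 4 sections, no member was called between trained and untrained mice in any comparison. In the whole section edgeR called 0 of 46 members between trained and untrained mice (0.0145% of 13810 genes); 1 had an unadjusted p under 0.05 (7.96% of all genes), and DESeq2 and limma voom also called 0, with 3 members each under 0.05. Without trained 1, which leaves 1 trained section, edgeR called Rpl21 (log2 0.49), Rpl10 (-0.46) and Rpl37a (-0.45), with 5.96% of all genes called, a share near that of the members. With any other section left out it called no member. The fitted difference was above 0 for 36 members and below 0 for 10, with a median log2 of 0.07 and a range of -0.12 to 0.39 (0.01 is the median of all genes). Without untrained 1, the shallowest section, the median was -0.03 and 19 members were above 0, and without trained 1 it was -0.0037 with 22 above 0. In 22 members both trained sections exceeded both untrained sections in CPM, as 28.8% of all genes did, and in none were both below (12.1% of all genes). Of markers of other cells, 7 of 8 oligodendrocyte (median log2 0.24) and 4 of 6 endothelial genes (0.03) were above 0. So were 2 of 8 neuronal (-0.11), 2 of 8 astrocytic (-0.11), 1 of 8 microglial (-0.12), 0 of 4 blood (-0.19) and 1 of 7 choroid plexus genes (-0.37). None was called, and their part was not tested.

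The 5 members with the highest whole-section differences were Rpl21, Rpl11, Rpl35a, Rpl22 and Rpl37. Rpl21 had 1150.4 and 1443 CPM in trained 1 and trained 2 and 833 and 1033 CPM in untrained 1 and untrained 2 (log2 0.39 ± 0.14, edgeR adjusted p = 0.584). Rpl11, which with Rpl5 and the 5S ribosomal RNA forms a particle that can restrain Mdm2, had 722 and 844 CPM in trained 1 and trained 2 and 556 and 659.7 CPM in untrained 1 and untrained 2 (log2 0.28 ± 0.13, edgeR adjusted p = 0.62). In both genes the groups did not overlap. For Rpl21 the gap between the trained sections was wider than that between trained 1 and untrained 2. Rpl35a had log2 0.28 ± 0.12, Rpl22 0.24 ± 0.13 and Rpl37, a zinc-binding protein, 0.23 ± 0.14, with edgeR adjusted p of 0.62, 0.663 and 0.697. All 5 moved by over 1.5 times with 1 section left out: without untrained 1 the log2 was 0.25 for Rpl21, 0.17 for Rpl11, 0.18 for Rpl35a and 0.13 for Rpl22, and without trained 2 it was 0.094 for Rpl37.

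The 5 lowest were Rpl37a, Rpl3, Rpl5, Rpl17 and Rpl10. Rpl37a had 964 and 692 CPM in trained 1 and trained 2 and 831 and 891 CPM in untrained 1 and untrained 2 (log2 -0.12 ± 0.17, edgeR adjusted p = 0.885). Rpl10 had 368 and 251 CPM in trained 1 and trained 2 and 282 and 343 CPM in untrained 1 and untrained 2 (log2 -0.09 ± 0.19, edgeR adjusted p = 0.928). In both, trained 1 was the highest and trained 2 the lowest of all 4 sections. Rpl3 (log2 -0.10 ± 0.13), Rpl5 (-0.10 ± 0.12) and Rpl17 (-0.09 ± 0.16) overlapped between groups as well. Of the stalk genes, Rplp0 had 294 and 273 CPM in trained 1 and trained 2 and 272 and 289 CPM in untrained 1 and untrained 2 (log2 -0.06 ± 0.12, edgeR adjusted p = 0.919), Rplp1 log2 0.08 ± 0.14 and Rplp2 0.15 ± 0.13. Leaving out 1 section turned the sign of Rpl10, Rpl17, Rpl37a and Rplp0 (without trained 2), of Rpl10 and Rpl3 (without untrained 2) and of Rplp1 (without trained 1 or untrained 1). Rplp2 ran from 0.053 without untrained 1 to 0.26 without untrained 2, and Rpl5 was -0.0015 without trained 2.

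In the hippocampal layers (CA1, CA3 and DG spots together) edgeR again called 0 members (0% of 8918 genes), with 3 under an unadjusted p of 0.05 (5.15% of all genes); DESeq2 and limma voom called 0, with 1 and 6 under 0.05. Without trained 1 it called 4, Rpl11 (log2 0.48), Rpl21 (0.56), Rpl37 (0.61) and Rpl41 (0.47), with 1.61% of all genes called. With any other section left out it called no member. The summed share was 3.12%, 3.23%, 2.65% and 2.98% in trained 1, trained 2, untrained 1 and untrained 2, so both trained sections lay above both untrained ones, by less between trained 1 and untrained 2 than between the untrained sections. Of the members 37 were above 0 and 9 below, with a median log2 of 0.13 (0.00 for all genes) and a range of -0.26 to 0.42. Both trained sections exceeded both untrained in 19 members (18.9% of all genes) and lay below in 3 (15.1%). The median was 0.07 without untrained 1 and 0.19 without untrained 2.

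Rpl21, Rpl11, Rpl36, Rpl37 and Rpl9 had the highest values there. Rpl11 had 755 and 828 CPM in trained 1 and trained 2 and 525 and 644 CPM in untrained 1 and untrained 2 (log2 0.42 ± 0.16, edgeR adjusted p = 0.947). Rpl36 had 637 and 696 CPM in trained 1 and trained 2 and 462 and 548 CPM in untrained 1 and untrained 2 (log2 0.38 ± 0.15, edgeR adjusted p = 0.947). In these genes both trained sections were above both untrained ones. Rpl21 had 1126 and 1398 CPM in trained 1 and trained 2 and 779.7 and 1082 CPM in untrained 1 and untrained 2 (log2 0.42 ± 0.18, edgeR adjusted p = 0.947), and Rpl37 and Rpl9 had log2 0.36 ± 0.18 and 0.32 ± 0.15 with the same adjusted p of 0.947. Rpl37 rested on trained 2, with log2 0.018 without it and 0.61 without trained 1, and Rpl21 ran from 0.21 without trained 2 to 0.66 without untrained 2. Rpl9 was 0.20 without trained 2. The lowest were Rpl3, Rpl7, Rpl5, Rpl14 and Rpl13a. Rpl3 had 520.3 and 472 CPM in trained 1 and trained 2 and 549 and 623 CPM in untrained 1 and untrained 2 (log2 -0.26 ± 0.15, edgeR adjusted p = 0.947), and both trained sections were below both untrained ones. Rpl7 (log2 -0.15 ± 0.15) and Rpl14 (-0.05 ± 0.15) were also below in both, while Rpl5 (-0.11 ± 0.16) and Rpl13a (-0.05 ± 0.15) overlapped. Rplp0, Rplp1 and Rplp2 had log2 0.01 ± 0.16, 0.19 ± 0.16 and 0.13 ± 0.15. Rplp0 turned to -0.14 without untrained 2, and Rplp1 was 0.095 without trained 2. Rpl5 and Rpl13a turned sign too, to 0.023 and 0.030 without trained 2, and Rpl13a to 0.037 without untrained 1.

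**Figure D4:**
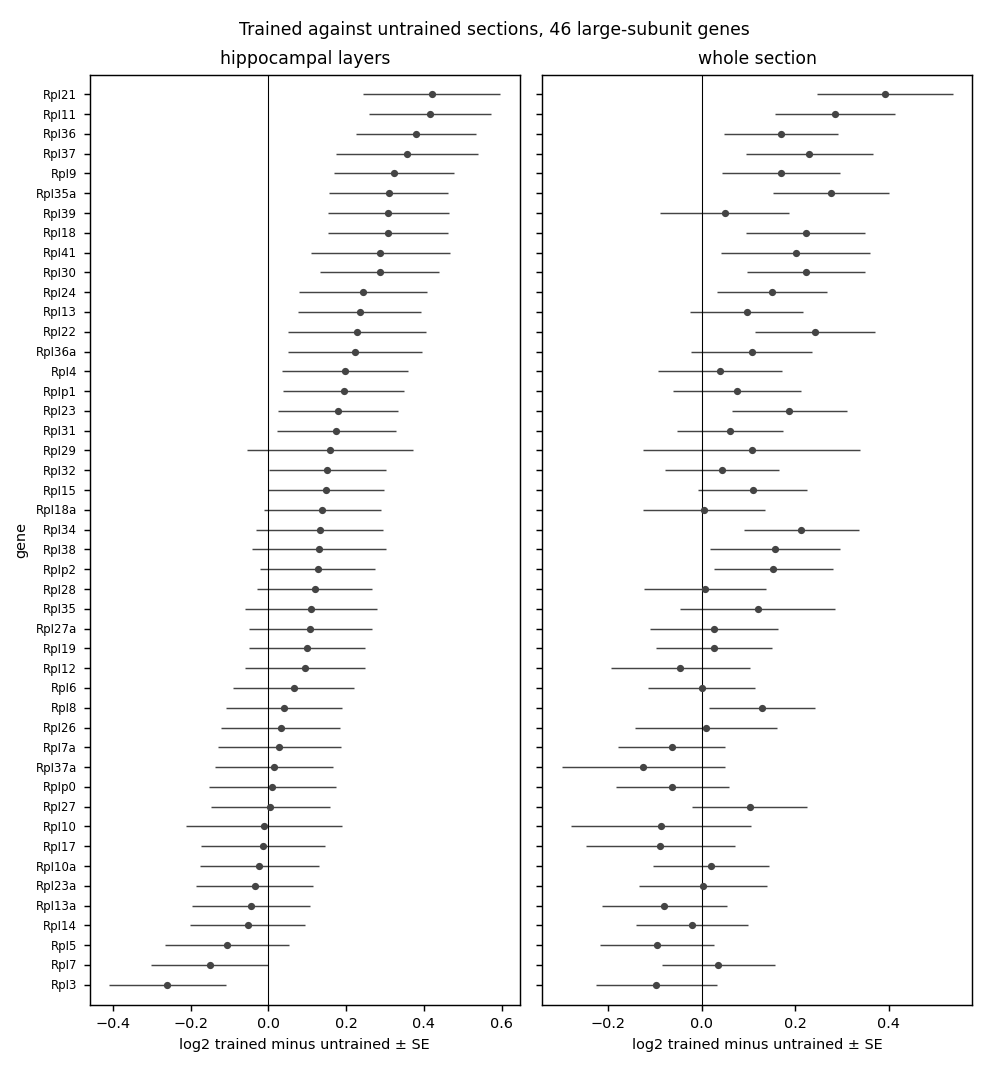
Log2 difference, trained minus untrained, with its standard error (edgeR, 2 sections a group) for the 46 members in the hippocampal layers (left) and the whole section (right), in the order of the left panel. The points spread around a value just above 0, no member passed an adjusted p of 0.05, and Rpl21 and Rpl11 lie at the top of both panels.

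Taken singly, the 14 regions gave 0 members called by edgeR, DESeq2 or limma voom, while 25, 5 and 43 of the 644 pairs had an unadjusted p under 0.05; over all genes and the 14 regions edgeR called 0.0532% of the tests, and 5.88% had an unadjusted p under 0.05. Without trained 1 there were 8 calls, of Rpl11, Rpl21 and Rpl37 in CA1, of Rpl35a, Rpl37, Rpl39 and Rpl9 in the DG and of Rpl21 in the thalamus, where 0.819% of the tests over all genes and regions were called. In CA1 (0.0199% of genes called) 38 members were above 0, and Rpl11 had 689 and 824 CPM in trained 1 and trained 2 and 503 and 486 CPM in untrained 1 and untrained 2 (log2 0.61 ± 0.19, edgeR adjusted p = 0.489). In CA3 (0.0282%) 31 were above 0, and Rpl21 had 1173 and 1398 CPM in trained 1 and trained 2 and 715 and 1004 CPM in untrained 1 and untrained 2 (log2 0.47 ± 0.21, edgeR adjusted p = 1), from 15 UMIs in untrained 1. In the DG (0% called) 40 were above 0, and Rpl39, which lies in the exit tunnel, had 789 and 817 CPM in trained 1 and trained 2 and 555 and 578 CPM in untrained 1 and untrained 2 (log2 0.56 ± 0.22, edgeR adjusted p = 0.985). These were the members with the smallest p in each layer. In all 3 the groups did not overlap, but the members were picked by p, so this lends no further support. Markers of other cells, none of them called, shifted as well: in the DG 8 of 8 astrocytic (median log2 0.59) and 4 of 4 blood genes tested (0.77) were above 0, and in CA1 8 of 8 oligodendrocyte genes (0.68; Mag had the smallest edgeR adjusted p, 0.0609), 6 of 7 astrocytic (0.24) and 4 of 4 blood genes (0.27). Their part was not tested. Outside the hippocampus the thalamus held the smallest unadjusted p, again for Rpl21, at 1220.0 and 1468 CPM in trained 1 and trained 2 and 754 and 956 CPM in untrained 1 and untrained 2 (log2 0.58 ± 0.17, edgeR adjusted p = 0.546). The largest difference of a member in any region was that of Rpl8 in the ependymal lining, at 845 and 738 CPM in trained 1 and trained 2 and 379 and 342 CPM in untrained 1 and untrained 2 (log2 1.04 ± 0.29, edgeR adjusted p = 0.528), from 19 and 14 UMIs in the untrained sections. Its groups did not overlap, but it was picked as the largest difference. In these ependymal spots 7 of 8 oligodendrocyte genes were below 0 (median log2 -0.52) and Ttr, a choroid plexus gene, had log2 -1.72, and their part was not tested. The median member difference ran from -0.12 in the meninges and -0.01 in the medium spiny neuron spots to 0.17 in CA1 and 0.18 in the DG.

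Whether the training difference of a member itself varied between regions was tested as an interaction with the section as a block. edgeR called 0 of 644 pairs of member and region, with 24 under an unadjusted p of 0.05 and a smallest adjusted p of 0.61, and DESeq2 called 0. Over all 9311 genes and the 14 regions 0.00997% of the tests were called and 5.08% had an unadjusted p under 0.05. So the DG and CA1 medians above are not shown to differ from those of other regions. The interval behind a single member was wide, as the standard errors of the layers, 0.19 for Rpl11 in CA1 and 0.22 for Rpl39 in the DG, show.

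Sections of one group differed from each other too, and in opposite directions for different members. Against trained 1, trained 2 was higher in CPM for 22 members and lower for 24. Rpl10 had a log2 of -0.55 for trained 2 over trained 1, with the same sign in all 14 regions, and Rpl29 (log2 -0.42), Rpl17 (-0.37), Rpl10a (-0.13) and Rpl26 (-0.32) were lower in all 14 as well. Rpl37 (log2 0.36), Rpl38 (0.35), Rpl41 (0.26) and Rpl11 (0.22) were higher in trained 2 in all 14. These 9 members were those with 1 sign in all regions, and regions of a section share its library. Between the untrained sections 45 of 46 members were lower in untrained 1, most of all Rpl29, at 523, 389.8, 298 and 508 CPM in trained 1, trained 2, untrained 1 and untrained 2. No count over all genes stands beside these counts within groups, so they are not shown to be particular to the members. Trained 2 was the deepest section and untrained 1 the shallowest, and mitochondrial transcripts were 12.2%, 6.83%, 12.1% and 11.6% of UMIs in the 4 sections; their part was not tested.

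**Figure D5:**
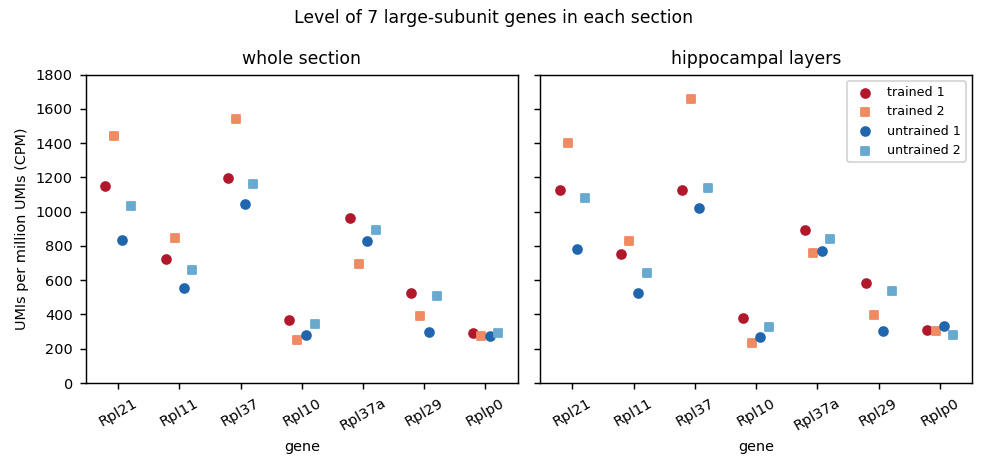
CPM (vertical axis) of 7 members in each of the 4 sections, for the whole section (left) and the hippocampal layers (right); red symbols are trained and blue untrained mice. Rpl21 and Rpl11 are higher in both trained sections, Rpl37 mainly in trained 2, and Rpl10, Rpl37a and Rpl29 are lower in trained 2 than in trained 1.

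Other genes of the translation machinery were counted beside the members, with the same fit. Of all genes, 17.5% were called higher and 15.4% lower in the thalamus, and 14.1% and 12.3% in the hypothalamus. The shares were 14.5% and 10.1% in white matter, 14.1% and 9.06% in the upper cortex and 7.61% and 3.73% in CA3. Of 31 small subunit genes 31 were lower in the thalamus (median log2 -0.34), 27 in the upper cortex (-0.32) and 17 in CA3 (-0.35), and 27 were higher in white matter (0.37) and 25 in the hypothalamus (0.29), with none in the opposite direction in these regions. Among 15 other TOP mRNAs 10 were lower and none higher in the thalamus, 9 lower and 1 higher in the upper cortex, 9 higher and none lower in white matter and 6 higher and 2 lower in the hypothalamus. Fau, whose product is cleaved to a small subunit protein, had thalamus and white matter log2 values of -0.32 and 0.43 (edgeR adjusted p = 2.64e-04 and 7.46e-06). Of 76 mitochondrial ribosome genes tested 3 were higher and 0 lower in the thalamus, 7 higher and 1 lower in the hypothalamus, and 1 higher and 1 lower in white matter. Of 36 initiation factors 1 was higher and 4 were lower in the thalamus, 3 and 2 in the hypothalamus and 3 and 1 in white matter. Of 11 elongation factors 2 were higher and 2 lower in the thalamus, 4 and 0 in the hypothalamus and 4 and 1 in white matter, and of 27 ribosome biogenesis genes 1 and 5, 3 and 1, and 2 and 0 in the same order. The elongation factors Eef1a1 and Eef1a2, which bring aminoacyl-tRNA to the ribosome, went apart: in the upper cortex Eef1a1 had log2 -0.55 and Eef1a2, the form of neurons and muscle, 0.46, and in white matter they had 0.32 and -0.48 (edgeR adjusted p at most 8.88e-04).

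Between trained and untrained hippocampal layers none of these lists had a gene called. The median log2 was 0.11 for the small subunit, 0.06 for the mitochondrial ribosome, -0.02 for elongation factors, -0.02 for other TOP mRNAs and -0.03 for ribosome biogenesis. The genes with the smallest p were Rps20 (log2 0.41, edgeR adjusted p = 0.947), Mrpl35 (log2 -1.04, edgeR adjusted p = 0.947), Eef1a2 (log2 -0.36, edgeR adjusted p = 0.947), Eif3k (log2 0.42, edgeR adjusted p = 0.947), Fau (log2 0.32, edgeR adjusted p = 0.947) and Gnl2 (log2 -0.78, edgeR adjusted p = 0.947). Markers of other cells were read beside them. Of these, 7 of 8 oligodendrocyte genes were above 0 (median log2 0.43), as were 4 of 4 blood genes (0.37), 4 of 5 endothelial genes (0.13), 7 of 8 microglial (0.37) and 7 of 8 astrocytic genes (0.29), while 2 of 8 neuronal genes were (-0.05). None of these was called. The oligodendrocyte list was 0.237%, 0.431%, 0.240% and 0.267% of hippocampal UMIs in trained 1, trained 2, untrained 1 and untrained 2, highest in trained 2. The blood list was 0.0702%, 0.0602%, 0.0465% and 0.0516% in the same order, so that both trained sections lay above both untrained ones, as for the member share, and the endothelial list 0.0189%, 0.0262%, 0.0194% and 0.0197%. The microglial list was 0.0360%, 0.0592%, 0.0418% and 0.0380%, the astrocytic list 0.244%, 0.350%, 0.264% and 0.227% and the neuronal list 0.589%, 0.524%, 0.546% and 0.573% in the same order, and the part of any of them in the member values was not tested.

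Of the paralogs left out, 3 were expressed. Rpl22l1, the stand-in for Rpl22, had 504, 518, 365 and 472 CPM in the whole sections of trained 1, trained 2, untrained 1 and untrained 2 (log2 0.21, edgeR adjusted p = 0.727), Rpl36al had 304, 310.4, 225 and 271 (log2 0.23, adjusted p = 0.676) and Rpl7l1 43.3, 45.3, 30.9 and 44.1 (log2 0.13, adjusted p = 0.861). In each of them untrained 1 was the lowest section. Between regions Rpl22l1 was higher in the hypothalamus (log2 0.73, edgeR adjusted p = 1.07e-17), where Rpl22 was not called, and in the medium spiny neuron spots (0.24, 0.018). It was lower in white matter (log2 -0.29, edgeR adjusted p = 0.0183), where Rpl22 was called higher, and in layer 5 (-0.22, 0.0302). Rpl36al was higher in the choroid plexus (log2 0.40, edgeR adjusted p = 0.0323), and 2 of these 3 paralogs were lower in the upper cortex. Rpl10l, the testis form of Rpl10, had 0 UMIs of 27592052 in all sections, which allows up to 0.109 CPM, Rpl39l at most 2 and Rpl3l, the muscle form of Rpl3, at most 6. Among the pseudogene symbols Rpl9-ps6 had 33.1, 42.8, 48.3 and 37.2 CPM and Rpl10-ps3 23.3, 32.0, 31.5 and 34.6. Rpl genes have many processed pseudogenes of near-identical sequence, and how reads that fit a copy equally well were counted is not given in the sources used here, so that levels of single members are uncertain to that extent.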

How the data were processed

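UMI counts per gene and spot (10x Visium) of 4 coronal sections were deposited by the authors, not normalized and with 1 section per mouse. The count matrices name Space Ranger 1.2.2 in their headers, the submitters' processing notes list Cell Ranger 8, STAR, mm39 and GRCm39, and the study's methods name another Space Ranger version and an mm10 reference, so neither the version nor the build behind the counts is settled. No coordinates are in the count files. How reads shared by near-identical genes were counted is not given in the sources used here. The sequences came from a RefSeq table of another stated build, GRCm38.p6, and were matched by symbol.

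A spot was given to the region whose marker list had the highest mean standardized score over the spot and, at a weight of 0.5, its touching spots, if that score was at least 1. Regions with at least 10 spots in every section were kept (14). Region shares therefore describe spots that a list led, not whole anatomical regions. UMIs were summed per section and region. No doublet caller was run, since a spot is not a cell.

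edgeR 4.0.16 (filterByExpr, TMM scaling, quasi-likelihood F-test, two-sided) was fitted to all genes, in R 4.3.3, with Benjamini-Hochberg adjustment over all genes tested and a threshold of 0.05. Trained and untrained sections were compared 2 against 2. Regions were compared with the section as a block. The rank-sum test over spots that the study used was not repeated, because spots of 1 section are not replicates. limma 3.58.1 (voom) and DESeq2 1.42.0 were alternatives, and the fits were tested on simulated data. Figures were drawn with matplotlib 3.10.9 in Python 3.11.15.

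The members and gene lists were chosen with earlier results of these data known. Members named with values were those called, with for each region the 3 of smallest p in each direction, the 5 highest and the 5 lowest between trained and untrained in the whole section and the hippocampal layers, the stalk genes and the paralogs. Members named as not called, as unlike the rest or as different between sections of 1 group were chosen after their values were seen, as were 2 alternatives (ribosomal genes left out of the scaling, and pairs of hippocampal layers with 1 section left out). Precision follows depth, which was lowest in untrained 1. Replicate numbers did not pair the sections: the deviations of same-numbered sections from their group means had a correlation of 0.02 over 12482 genes.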

Additional observations from a re-analysis of the deposited data

How the results depend on the processing

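With 2 sections a group, no member was called between trained and untrained mice by edgeR, DESeq2 or limma voom, nor with other scalings, filters, thinned depth or spot rules. Leaving out 1 section gave 0 to 3 members in the whole section, 0 to 4 in the hippocampal layers and 0 to 8 over single regions, the highest each time without trained 1, where the lone trained section is assumed to vary like the untrained ones. With the replicate number as a block, 0 were called, the smallest adjusted p being 0.174 and 0.449, and the median member log2 stayed at 0.07 and 0.13. Of all genes, 2 were called in the whole section, against 21 by DESeq2, 4 with library totals alone, 211 with no low-count filter, 47 with the block, 848 without trained 1, 40 without trained 2 and 8 without untrained 2, and in the layers 0, against 12 with no filter, 13 with the block, 12 with each spot scored alone, 154 without trained 1, 7 without trained 2 and 1 without untrained 2 or with depth thinned. The median member log2 over the whole section ran from -0.03 to 0.15 with 1 section left out.

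The 276 calls between regions became 30 with all sums thinned to the smallest (fewer UMIs), 145 with no low-count filter, 153 with no section block, 173 with each spot scored alone and 152 to 254 with 1 section left out. DG against CA1 gave 1 to 3 and DG against CA3 11 to 16 with 1 section left out. Of 517 alternative values of the named regional calls 516 kept their direction and 427 their call. The exception was Rpl18 in the medium spiny neuron spots, at 0.25 when thinned. With a stricter score CA3 had too few spots, and no value.

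Signs near 0 turned between trained and untrained. With 1 section left out, whole-section log2 ran from -0.46 to 0.20 for Rpl10, -0.35 to 0.13 for Rpl17, -0.22 to 0.040 for Rpl3, -0.45 to 0.14 for Rpl37a, -0.18 to 0.038 for Rplp0 and -0.036 to 0.19 for Rplp1, and in the layers from -0.14 to 0.037 for Rpl13a, -0.24 to 0.023 for Rpl5 and -0.14 to 0.13 for Rplp0. Rplp0 was 0.013 in the whole section with library totals alone, and -0.00658 by DESeq2 and -0.11 with each spot scored alone in the layers. Rpl14 (0.019) and Rpl7 (0.030) turned with each spot scored alone. The cause was not tested.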
